A study of Mus musculus with 23 samples.

Results

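Cytochrome P450 enzymes of families 1 to 4 are the oxidases that meet drugs, plant compounds and fatty acids in the gut wall. The genes described here were the entries of the expression table whose mouse symbol is Cyp followed by a digit from 1 to 4 and a lowercase letter, without pseudogenes. They numbered 67 of the 19215 entries in the table. A further 13 protein-coding genes with such symbols are listed by RefSeq. They were not found in the expression table by gene number, so they could not be analysed here. Families 1 to 3 oxidise many foreign compounds, and their genes are known targets of sensors of such compounds. AHR acts on Cyp1a1, CAR (Nr1i3) on Cyp2b10 and PXR (Nr1i2) on Cyp3a11. Family 4 mainly hydroxylates fatty acids and eicosanoids such as leukotriene B4, and PPAR-alpha is the known regulator of its 4a subfamily. In the small intestine these enzymes sit mostly in the absorptive enterocytes of the villi, and they need electrons from NADPH P450 reductase (Por) to work.

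RNA of the small intestine of 23 male ICR mice was sequenced, with 1 library per mouse. All mice had received busulfan at 40 mg/kg, a drug that damages the gut lining, and there were no mice without busulfan among them. They were then given saline (Sa), or fecal microbiota transplantation (FMT), for which the donors had been dosed with the vehicle (Con-FMT), with alginate oligosaccharides (AOS) at 10 mg/kg (A10-FMT) or with AOS at 100 mg/kg (A100-FMT). The names of the libraries also divide them into 2 sets, called set 1 and set 2, and the study's text does not say what the sets are. There were thus 8 groups with 3 mice each, except Sa of set 1 with 2. The study's text places busulfan at 3 weeks of age, FMT over 1 week and sampling at 5 weeks, and does not say whether this held for both sets. Donor gut contents were pooled within each donor treatment, so the mice of an FMT group shared their inoculum. Whether the mice of a group came from separate litters or cages is not given, so a p-value measures the spread between these mice alone.

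The promoters of 6 of the P450 genes described below are shown first. They differ in the short words that the sensors of foreign compounds and the enterocyte factor HNF4 are known to bind. Other genes with clear changes, such as Cyp4f14, are not shown. Each is a window of 250 bases (GRCm38.p6, the assembly that mm10 names), written along the gene's strand. For Cyp2b10, Cyp3a11, Cyp2c65 and Cyp2c66 it ends where the gene starts in RefSeq. The windows of Cyp1a1 and Cyp3a13 lie inside the genes as RefSeq bounds them (57687928 to 57703824 and 137892933 to 137925610). They are therefore not the bases before the RefSeq start. Capitals mark GCGTG or CACGC (the core that AHR and ARNT bind), AGGTCA and TGAACT (elements that nuclear receptors bind, the second read from the opposite strand) and CAAAGTCC (the core of an HNF4 site). These words were chosen after the data were seen.
Cyp1a1, chr9:57697363-57697612, plus strand: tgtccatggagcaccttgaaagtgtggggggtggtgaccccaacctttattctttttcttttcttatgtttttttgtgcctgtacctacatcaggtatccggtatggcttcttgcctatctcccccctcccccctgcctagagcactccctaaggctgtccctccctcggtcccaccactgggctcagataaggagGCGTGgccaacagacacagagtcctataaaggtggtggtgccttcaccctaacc
Cyp2b10, chr7:25897408-25897657, plus strand: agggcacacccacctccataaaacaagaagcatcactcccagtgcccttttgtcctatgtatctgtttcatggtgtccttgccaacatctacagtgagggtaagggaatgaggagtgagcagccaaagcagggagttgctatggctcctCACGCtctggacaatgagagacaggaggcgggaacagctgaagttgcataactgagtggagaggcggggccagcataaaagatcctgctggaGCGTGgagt
Cyp3a11, chr5:145879855-145880104, minus strand: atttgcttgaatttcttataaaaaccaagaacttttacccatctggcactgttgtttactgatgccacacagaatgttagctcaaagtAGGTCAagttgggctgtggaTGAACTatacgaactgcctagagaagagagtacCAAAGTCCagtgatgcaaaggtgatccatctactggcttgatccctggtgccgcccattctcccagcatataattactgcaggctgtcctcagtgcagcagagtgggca
Cyp2c65, chr19:39060756-39061005, plus strand: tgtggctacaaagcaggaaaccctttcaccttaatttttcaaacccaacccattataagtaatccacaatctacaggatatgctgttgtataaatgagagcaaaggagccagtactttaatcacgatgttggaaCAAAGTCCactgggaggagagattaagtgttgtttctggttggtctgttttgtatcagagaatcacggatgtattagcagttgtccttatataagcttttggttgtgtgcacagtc
Cyp2c66, chr19:39113648-39113897, plus strand: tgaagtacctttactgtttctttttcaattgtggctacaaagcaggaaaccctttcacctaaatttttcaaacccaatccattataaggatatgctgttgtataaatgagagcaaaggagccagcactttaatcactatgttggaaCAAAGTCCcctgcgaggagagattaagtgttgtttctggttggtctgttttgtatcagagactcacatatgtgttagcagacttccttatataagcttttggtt
Cyp3a13, chr5:137921620-137921869, minus strand: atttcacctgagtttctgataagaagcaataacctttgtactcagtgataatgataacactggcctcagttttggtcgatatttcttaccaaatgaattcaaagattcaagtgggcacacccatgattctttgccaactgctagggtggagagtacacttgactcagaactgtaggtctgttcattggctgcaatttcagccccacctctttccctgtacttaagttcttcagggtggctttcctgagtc

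Cyp3a11 held all 3 nuclear receptor and HNF4 words, with AGGTCA 162 bases, TGAACT 142 bases and CAAAGTCC 109 bases before its start. The windows of the neighbours Cyp2c65 and Cyp2c66 were alike, with 208 identical bases of 221 aligned (94.1%), and each held CAAAGTCC, 116 and 104 bases before the start. Cyp1a1 held GCGTG 54 bases before the end of its window, Cyp2b10 held the word on both strands, and the Cyp3a13 window held none of the words. Counted on both strands, CAAAGTCC was in 4 of the 18 promoters found among the 22 genes tested below (Cyp2c65, Cyp2c66, Cyp2c68 and Cyp3a11) and in 1.196% of all 32851 promoters. GCGTG was in 7 of 18 and in 28.2% of all, AGGTCA in 2 of 18 and in 14.02% of all, and AGTTCA, the other strand of TGAACT, in 3 of 18 and in 11.8% of all. The TATA box word TATAAA, not capitalised above, was in 5 of 18 and in 12.4% of all. A match is a description of the letters and does not show binding. Since the windows of Cyp2c65 and Cyp2c66 are near copies, their matches to CAAAGTCC do not count as separate. These shares are not a test of enrichment, as the words were chosen after the data were seen.

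The deposited values are FPKM, which divide a gene's fragments by its transcript length and by the library's total, so levels can be compared between genes. Read numbers are unknown, and a gene listed at 0 therefore has no upper limit here. The libraries summed to 556470 to 667960 FPKM. Enterocyte markers such as Anpep (mean 1573 FPKM) were high throughout. The markers of other organs were near 0, with sums of 2.69 to 4.89 FPKM for 13 hepatocyte genes and 4.66 to 11.2 for 12 pancreatic acinar genes. Those of smooth muscle, which is a layer of the intestinal wall, were also low, with sums of 0.82 to 2.10 FPKM for 7 genes. The libraries thus held little RNA of smooth muscle, and the reason was not tested. Sa replicate 3 of set 1 stood apart, with a Pearson r of 0.944 to 0.965 with the other libraries against 0.968 to 0.991 among those. The title and the description of that library point to different columns of the table. The column of the title was used.

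The intestine expressed few of these genes strongly, and family 4 dominated. Of the 67 genes, 22 had a mean of at least 1 FPKM and were tested, and they held 99.4% of the summed level. The 20 genes of family 4 held 63.5% of the sum, the 37 of family 2 held 24.1%, the 7 of family 3 held 11.6% and the 3 of family 1 held 0.742%. Cyp4f14, an enzyme that hydroxylates leukotriene B4, was the highest at a mean of 252 FPKM, followed by its relatives Cyp4f16 (108) and Cyp4f40 (80.5). With Cyp4f13 (39.4) and Cyp4f17 (1.38) these genes lie in one stretch of chromosome 17, from 32506192 to 32947415 in GRCm38.p6. The fatty acid hydroxylase Cyp4v3 had a mean of 49.96 FPKM and Cyp4b1 of 11.8.

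The families that act on foreign compounds were at lower levels. Family 3 was represented by Cyp3a13 (mean 40.4 FPKM), Cyp3a25 (36.1) and Cyp3a11 (22.4), all on chromosome 5. Among family 2, the levels were 65.3 FPKM for Cyp2d26, 46.2 for Cyp2s1, 37.2 for the arachidonic acid epoxygenase Cyp2j6, 16.01 for Cyp2c65, 15.995 for Cyp2b10, and 10.9 for Cyp2c68. Family 1 came down to Cyp1a1 (6.31). The other tested genes, Cyp2u1, Cyp2d22, Cyp2c66, Cyp2j9 and Cyp2c23, had means of 1.496 to 2.73 FPKM.

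**Figure D1:**
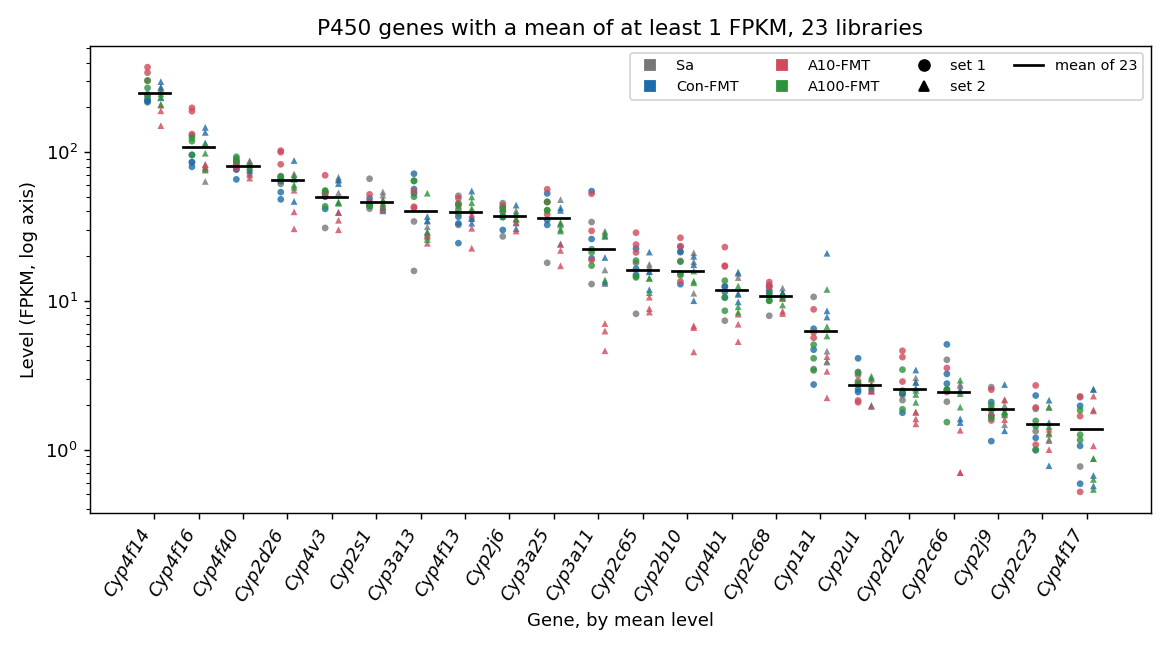
Level of the 22 tested P450 genes in every library, in FPKM on a log axis, with genes ordered by their mean. Circles are set 1, triangles are set 2, colours are the treatments and black bars are the means over 23 libraries, which fall from 252 FPKM for Cyp4f14 to 1.38 for Cyp4f17.

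The 45 genes under a mean of 1 FPKM included genes that are prominent in the liver. Cyp2e1, the alcohol-oxidising P450 of the liver, had a mean of 0.0504 FPKM, and the 8 genes of the 4a subfamily together had 0.231. In all, 33 of the 45 were under a mean of 0.1 FPKM and 34 of all 67 were above 0 in every library. The highest single value among the 45 was 2.95 FPKM for Cyp2c55. None of the 45 was tested. Cyp2w1, at a mean of 0.920 FPKM, came closest to the limit.

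Some of these genes are near copies whose reads may have been split between them. Of the 50-base words of its transcripts, Cyp2c68 shared 43.3% with other genes, mostly with Cyp2c40. The shares were 26.2% for Cyp3a25 (mostly with Cyp3a59), 26.0% for Cyp4f16 (mostly with Cyp4f37), 23.97% for Cyp2c66 and 20.6% for Cyp2c65 (mostly with each other) and 14.8% for Cyp3a11. Cyp3a13, Cyp2s1, Cyp2j9 and Cyp2c23 shared none. The levels of the genes with high shares are therefore uncertain, and the genes they share words with were low here, at 0.549 FPKM for Cyp2c40, 0.281 for Cyp3a59 and 0.260 for Cyp4f37.

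The clearest difference was between the A10-FMT mice of the 2 sets. Changes are log2 changes of FPKM with 1 added. They were tested with limma over the 11337 entries averaging 1 FPKM or more, with p-values adjusted by Benjamini-Hochberg, and a gene passed at an adjusted p under 0.05. The spread of a gene was estimated once over all 23 libraries. A standard error (SE) or p-value therefore also reflects mice outside the groups compared, unless the compared groups alone are named. In A10-FMT, 14 of the 22 P450 genes were lower in set 2 than in set 1 and 0 were higher, which is 63.6%, against 30.4% of all genes in either direction and 8.62% of all genes lower. In 16 of 22 all mice of set 2 were below all of set 1, as in 14% of all genes. The median change of the P450 genes was -0.83, against 0.12 for all genes. In Con-FMT 0 of 22 passed between the sets (0.00882% of all genes, and 4 P450 genes at an unadjusted p under 0.05), and in A100-FMT also 0 (0% of all genes, and 2 at an unadjusted p under 0.05). In Sa, 1 passed, Cyp4v3, which was higher in set 2 by 0.63 (38.1% of all genes, 24.2% higher). Without each library in turn, 12 to 16 genes passed in A10-FMT. These comparisons of the sets within a treatment were added after the data were seen, and since the labels do not say how the sets differ, a batch and the set cannot be told apart.

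The contrast between the sets was itself larger in A10-FMT than in the other FMT groups. As an interaction in limma, the difference between A10-FMT and Con-FMT was lower in set 2 than in set 1 for 10 of 22 P450 genes and higher for 0 (20.8% of all genes passed in either direction and 6.7% were lower). Against A100-FMT in place of Con-FMT it was lower for 6 (3.5% of all genes in either direction, 1.54% lower), and for 0 with a replicate block. It was lower for 2 with all genes above 0, for 11 with the description's column and for 12 with array quality weights. That count was 11 without either Sa mouse of set 1. It was 0 without A10-FMT replicate 3, A100-FMT replicate 1 or A100-FMT replicate 3 of set 1, and without A10-FMT replicate 2 or A100-FMT replicate 3 of set 2, and it was 2 to 3 without Con-FMT replicate 2 or A10-FMT replicate 2 of set 1, Sa replicate 3, Con-FMT replicate 3, A10-FMT replicate 1 or 3, or A100-FMT replicate 2 of set 2. Between A100-FMT and Con-FMT 0 passed (0% of all genes), with 3 at an unadjusted p under 0.05. The A10-FMT group of set 2 had the lowest group mean of all 8 groups for 16 of the 22 genes, as it did for 8.32% of all genes. The A10-FMT group of set 1 had the highest for 13 of the 22, as it did for 11.8% of all genes.

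**Figure D2:**
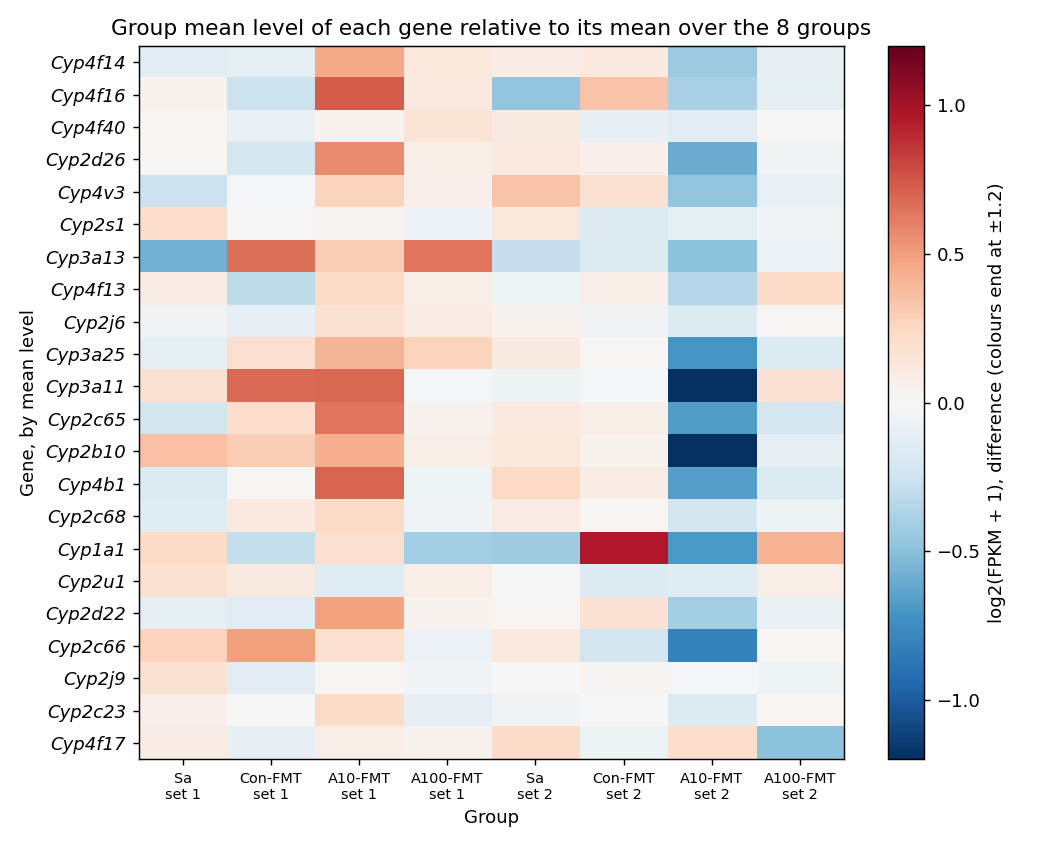
Group mean of each tested P450 gene, as log2(FPKM + 1), relative to the gene's mean over the 8 groups, with red above and blue below it. The column of A10-FMT of set 2 is blue for most genes and is the lowest of the 8 for 16 of 22, while that of A10-FMT of set 1 is red for most and the highest for 13.

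Among the genes for foreign compounds, Cyp3a11 and Cyp2b10 changed most between the A10-FMT sets. Cyp3a11 is a main drug-oxidising P450 of the mouse liver. Its levels were 7.04, 4.62 and 6.27 FPKM in A10-FMT of set 2 and 18.8, 29.6 and 52.5 in A10-FMT of set 1. In the other 6 groups they ran from 13.0 to 54.7, so that the 3 mice were below every other mouse. The change between the sets was -2.21 ± 0.43 (SE, n = 3 and 3, adjusted p = 0.00125 by limma), or 0.216-fold on the scale of FPKM with 1 added, with group means of 5.98 and 33.6 FPKM.

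Cyp2b10 levels were 6.61, 4.54 and 6.80 FPKM in A10-FMT of set 2, against 13.5, 23.3 and 26.6 in A10-FMT of set 1. The other groups ran from 10.03 to 23.1, again with no overlap with the 3 mice. The change between the sets was -1.63 ± 0.27 (adjusted p = 3.94e-04 by limma). Cyp3a25 had 24, 17.2 and 21.9 FPKM against 38.2, 46.3 and 56.3. Its change was -1.12 ± 0.28 (adjusted p = 0.00596).

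Of the 4 tested 2c genes, whose products act on arachidonic acid among other substrates, 3 were lower in A10-FMT of set 2 than in that of set 1. Cyp2c65 had 10.6, 8.41 and 8.86 FPKM in A10-FMT of set 2 and 21.2, 28.7 and 23.9 in that of set 1, a change of -1.31 ± 0.22 (adjusted p = 4.61e-04 by limma). Cyp2c66 had 0.70, 0.70 and 1.35 FPKM against 2.52, 3.54 and 2.44, a change of -1.01 ± 0.21 (adjusted p = 0.00200). Cyp2c68 moved less, from 12.8 ± 0.53 to 9.07 ± 1.22 FPKM (SD, n = 3 each), a change of -0.46 ± 0.10. Cyp2c23, at 1.22 ± 0.20 against 1.9 ± 0.81 FPKM, did not pass (-0.35 ± 0.23). The genes Cyp2d26 and Cyp2d22 of the 2d subfamily changed by -1.198 ± 0.19 and -0.88 ± 0.17, with Cyp2d26 at 55.4, 30.5 and 39.7 FPKM against 82.9, 99.9 and 102.3.

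Of the 7 tested genes of family 4, 5 fell between the A10-FMT sets. Cyp4f14 levels were 189.7, 151 and 207 FPKM in A10-FMT of set 2 and 342, 304 and 373 in that of set 1. All 17 mice outside A10-FMT lay between 209 and 302, so that its lowest 3 mice were in one set of A10-FMT and its highest 3 in the other. The change between the sets was -0.90 ± 0.11 (adjusted p = 4.9e-05 by limma). Cyp4f16 changed by -1.09 ± 0.18, Cyp4b1 by -1.37 ± 0.21, Cyp4v3 by -0.74 ± 0.19 and Cyp4f13 by -0.60 ± 0.20, and all 4 passed. Cyp4f40, at 73.1 ± 7.82 FPKM in A10-FMT of set 2 and 82.9 ± 4.27 in that of set 1 (SD, n = 3 each), did not pass. Neither did Cyp4f17, at 1.73 ± 0.62 against 1.49 ± 0.89 FPKM (0.18 ± 0.35).

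**Figure D3:**
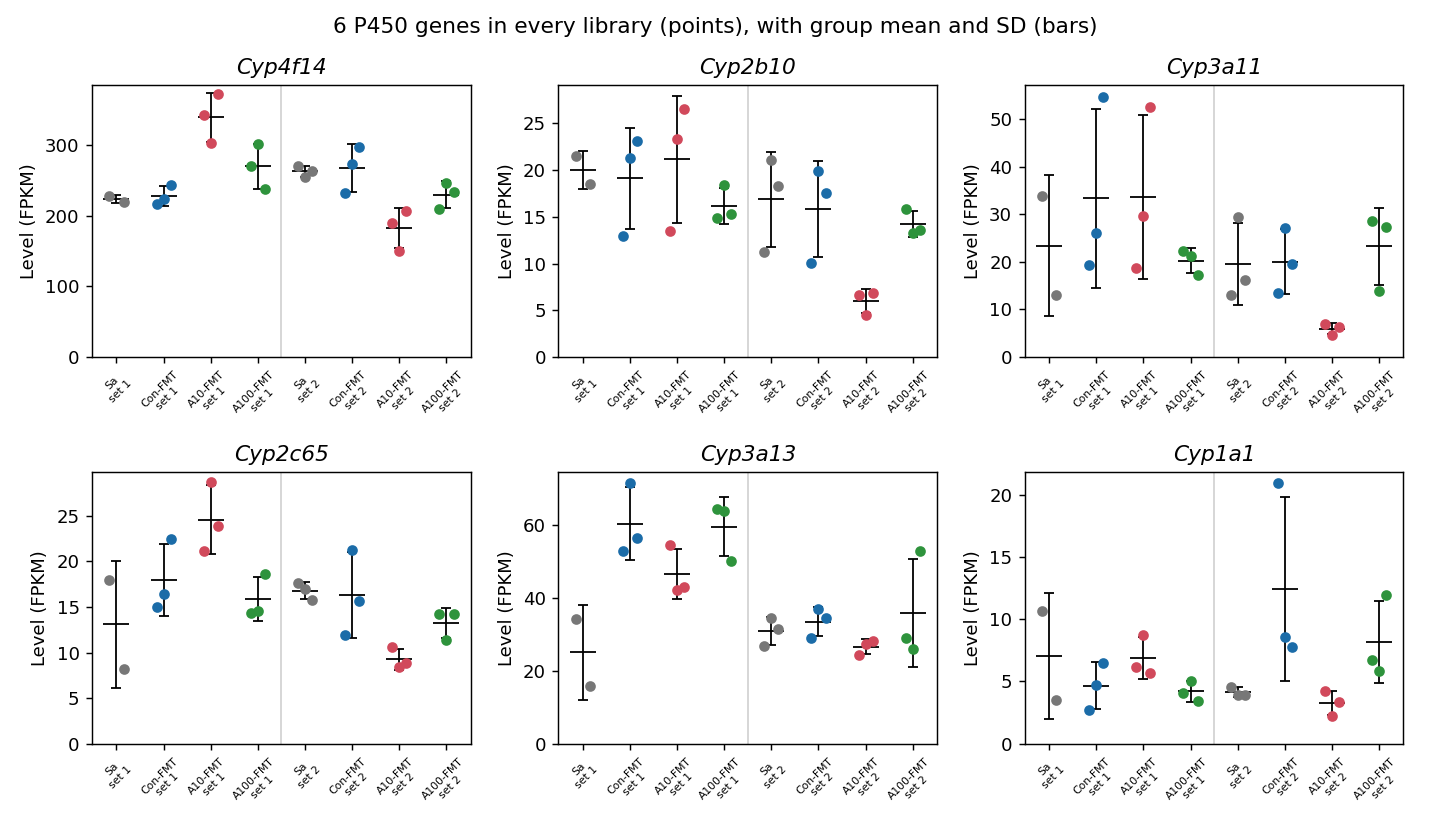
Levels of 6 P450 genes in FPKM in every mouse (points), with the mean and SD of each group (black bars), for set 1 on the left and set 2 on the right of each panel. Cyp2b10 and Cyp3a11 are lowest in the 3 mice of A10-FMT of set 2, Cyp4f14 is highest in A10-FMT of set 1 and lowest in that of set 2, and Cyp3a13 is lowest in Sa of set 1 among the groups of that set.

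Enterocyte markers moved in the same direction. In A10-FMT, 7 of 8 were lower in set 2 and 0 higher (median -0.82), and their summed level was 3776 to 4591 FPKM in set 2, 8187 to 9628 in set 1 and 4166 to 6831 in the other groups. The list for the proximal small intestine, which shares Apoa4 and Lct with it, had 5 of 8 genes lower, and that for the distal small intestine had 4 of 8 lower. Markers of dividing crypt cells moved the opposite way, with 8 of 10 higher (median 0.43) and sums of 580 to 639 FPKM in set 2 and 431 to 472 in set 1. The goblet cell list had 4 of 8 lower, and 0 of 7 Paneth cell genes passed (sums of 12044 to 17336 FPKM in set 2 and 12155 to 19834 in set 1). In bulk tissue, fewer cells of a type and less RNA per cell cannot be told apart, and the part of the enterocyte markers in the P450 difference was not tested.

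The summed level of the 67 P450 genes was set beside that of the 8 enterocyte markers in each mouse. It was 545 to 662 FPKM in A10-FMT of set 2, 1030 to 1237 in A10-FMT of set 1 and 749 to 970 in the other groups. As a share of the enterocyte marker sum, the P450 sum was 14.2% to 16.2% in A10-FMT of set 2 and 12.5% to 13.2% in that of set 1. The other groups had 13.2% to 18.8%, with the highest share in Sa of set 1. Cyp4f14 alone gave 252 FPKM of the P450 sum on average, so the sum mainly follows the most abundant genes.

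**Figure D4:**
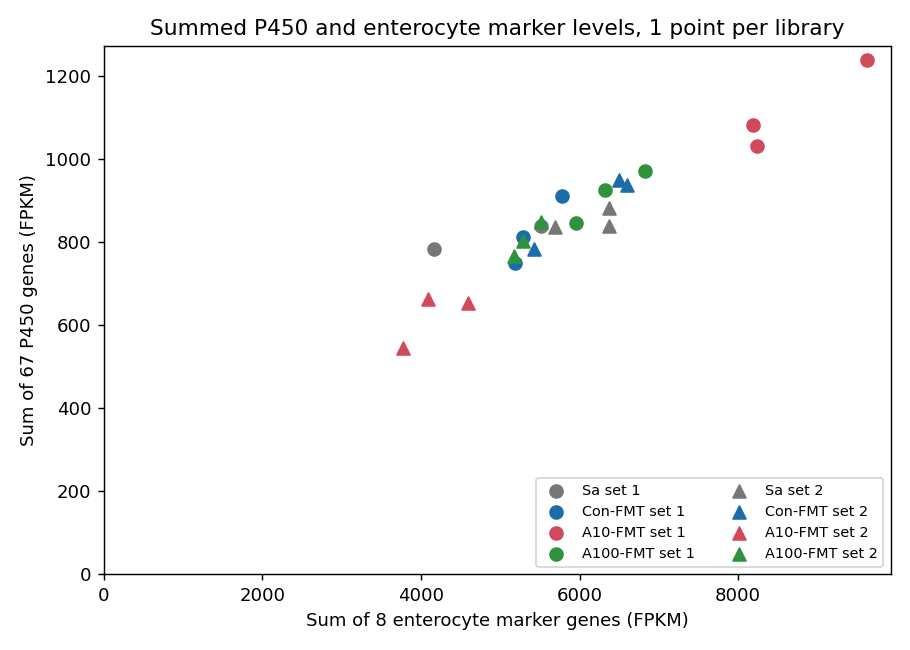
Summed level of the 67 P450 genes against the summed level of 8 enterocyte markers, both in FPKM, with 1 point per mouse, circles for set 1 and triangles for set 2. On the P450 axis the mice of A10-FMT lie at both ends, at 545 to 662 FPKM of P450 in set 2 and at 1030 to 1237 in set 1.

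Against Con-FMT, the question was whether FMT from donors dosed with AOS differed from FMT of donors without it. Averaged over both sets, 0 of 22 P450 genes passed for A10-FMT (0% of all genes, and 3 P450 genes at an unadjusted p under 0.05) and 0 for A100-FMT (0.123% of all genes, and 1 at an unadjusted p under 0.05), and the alternatives that keep both sets together also gave 0 for both. Within the sets, A100-FMT vs Con-FMT gave 0 in set 1 (0.406% of all genes, and 2 P450 genes at an unadjusted p under 0.05) and 0 in set 2 (0% of all genes, and 1).

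A10-FMT vs Con-FMT went in opposite directions in the sets. In set 1, 5 P450 genes were higher than in Con-FMT and 0 lower (22.7%, against 16.7% of all genes in either direction and 5.2% higher). Cyp4f16 had 188, 132 and 198 FPKM against 79.7, 95.9 and 85.7, a change of 0.96 ± 0.18 (adjusted p = 0.00194 by limma). Cyp2d26 rose by 0.77 ± 0.19, Cyp4b1 by 0.68 ± 0.21, Cyp2d22 by 0.61 ± 0.17 and Cyp4f14 by 0.57 ± 0.11. Without Con-FMT replicate 2 of set 1, 2 genes passed, and without A10-FMT replicate 2 or 3 of set 1, 3 passed.

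In set 2, Cyp4f14 alone was lower in A10-FMT than in Con-FMT (-0.56 ± 0.11, adjusted p = 0.0399 by limma, against 0.379% of all genes in either direction and 0.37% lower). A further 13 P450 genes had an unadjusted p under 0.05, and 11 of 22 were below Con-FMT in all 3 mice, as were 8.3% of all genes. Cyp2b10 (-1.23 ± 0.27, adjusted p = 0.0575) and Cyp3a11 (-1.56 ± 0.43, adjusted p = 0.132) were among those that did not pass. The count for set 2 was 5 without either Sa mouse of set 1, 4 without Con-FMT replicate 1 and 2 without Sa replicate 1 of set 2. It was 0 without any 1 Con-FMT mouse or A100-FMT replicate 1 or 2 of set 1, and without replicate 2 or 3 of any group of set 2. With array quality weights it was 13, with the description's column 4 and with quantile normalization 3, and it was 0 with a replicate block, with all genes above 0 and with the compared groups alone. In this comparison 2 of 8 enterocyte markers were lower and 0 higher in set 2 (median -0.43), and 6 of 8 were higher and 0 lower in set 1 (median 0.47). Their part in these changes was not tested.

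**Figure D5:**
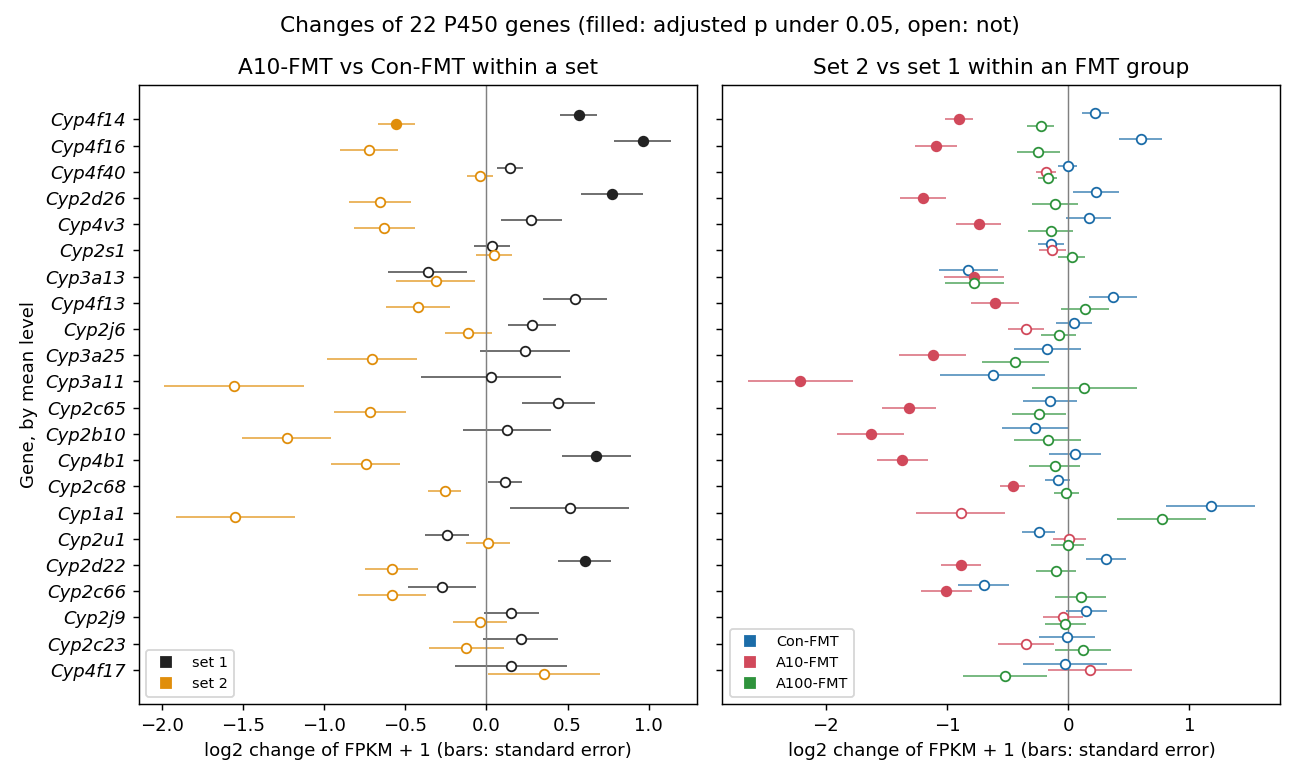
Log2 changes (FPKM + 1) of the 22 tested P450 genes with their standard errors, for A10-FMT vs Con-FMT in each set (left) and for set 2 vs set 1 in each FMT group (right). Filled points passed at an adjusted p under 0.05, which 5 genes did in set 1 and 1 in set 2 on the left, and 14 in A10-FMT and 0 in the other FMT groups on the right.

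Against Sa, the question was whether FMT changed the intestine of busulfan-treated mice. Cyp3a13 was the only P450 gene that passed in all 3 FMT groups of set 1. Its levels were 34.2 and 15.9 FPKM in Sa, 52.8, 71.6 and 56.4 in Con-FMT, 54.6, 42.2 and 43.0 in A10-FMT and 64.3, 63.9 and 50.1 in A100-FMT. Both Sa mice were below all 9 FMT mice. The changes were 1.32 ± 0.27, 0.95 ± 0.27 and 1.30 ± 0.27 (n = 3 against 2, adjusted p = 0.0257, 0.0147 and 0.00647 by limma), and the 3 comparisons share the same Sa mice. Without Sa replicate 3, the library that stood apart, Cyp3a13 passed in none of them, and in A10-FMT it also did not pass without A10-FMT replicate 1.

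Cyp3a13 was thus the single P450 gene of 22 that passed for Con-FMT in set 1 (4.55%, against 26.9% of all genes in either direction and 17.7% higher) and for A100-FMT in set 1 (4.55%, against 35.2% and 22%). For A10-FMT in set 1, 7 rose and 0 fell, which at 31.8% was close to the 32% of all genes that passed in either direction, while 13.6% of all genes rose. Beside Cyp3a13 these were Cyp2c65 (0.94 ± 0.25), Cyp4b1 (0.90 ± 0.24), Cyp4f16 (0.69 ± 0.20), Cyp4f14 (0.59 ± 0.13), Cyp2d22 (0.58 ± 0.18) and Cyp2c68 (0.39 ± 0.12). Without Sa replicate 3, 2 of the 7 passed, and with array quality weights or with the compared groups alone in the fit 0 passed. For Con-FMT and A100-FMT, leaving out Sa replicate 1 raised the count to 8 and 7, and for Con-FMT the count was 0 without Con-FMT replicate 1 or 3. Enterocyte markers had 7 of 8 higher in A10-FMT than in Sa in set 1 (median 0.76), and their part was not tested.

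In set 2, where Sa had 3 mice, no P450 gene passed for Con-FMT (0.0353% of all genes) or A100-FMT (0.0353%), with 4 and 2 at an unadjusted p under 0.05, and with array quality weights 2 passed in each. A10-FMT had 20 of 22 genes below Sa in the mean and 13 below it in every mouse, as were 11.4% of all genes. The genes that passed were Cyp2b10 and Cyp4f14 (9.09%, against 0.423% of all genes in either direction and 0.335% lower). Cyp2b10 had 11.3, 21.1 and 18.3 FPKM in Sa and fell by 1.33 on the log2 scale in A10-FMT (SE 0.27, adjusted p = 0.0482 by limma). Cyp4f14 had 270.3, 255 and 263 FPKM in Sa and fell by 0.54 (SE 0.11, adjusted p = 0.0485). Both calls were lost with a replicate block (adjusted p = 0.0597 for Cyp2b10 and 0.0821 for Cyp4f14 by limma), with all genes above 0 and with the compared groups alone. With the description's column 8 passed and with array quality weights 13. The count went from 0 to 10 when single libraries were left out, with 10 without either Sa mouse of set 1 and 5 without Con-FMT replicate 1 of set 2. Without any other library it was 0 or 1, except 2 without Con-FMT replicate 3 or A10-FMT replicate 3 of set 1. Cyp3a11, at 13.1, 29.4 and 16.2 FPKM in Sa, changed by -1.49 ± 0.43 and did not pass (adjusted p = 0.13). In the same comparison 1 of 8 enterocyte markers was lower and 0 higher (median -0.50), and 3 of 7 Paneth cell genes were higher and 0 lower (median 0.87), and their part was not tested.

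Averaged over both sets, 0 of 22 P450 genes passed for Con-FMT, A10-FMT or A100-FMT vs Sa (0.75%, 0.132% and 0.891% of all genes), with 3, 5 and 2 at an unadjusted p under 0.05. Cyp3a13 came closest, with 0.71 ± 0.18 for Con-FMT (adjusted p = 0.0795 by limma) and 0.72 ± 0.18 for A100-FMT (adjusted p = 0.0592). Without Sa replicate 1 of set 1, 7, 2 and 4 genes passed, and without A100-FMT replicate 3 of set 2, 1 passed for Con-FMT.

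The effect of A10-FMT relative to Sa differed between the sets for 12 P450 genes, all lower in set 2 (54.5%, against 28.4% of all genes in either direction and 10.6% lower). They were Cyp3a11, Cyp4b1, Cyp2c65, Cyp3a25, Cyp4v3, Cyp2b10, Cyp2d26, Cyp3a13, Cyp4f14, Cyp2d22, Cyp2c66 and Cyp2c68. The differences ran from -0.72 for Cyp2c68 to -2.02 for Cyp3a11. With array quality weights 0 passed, and with the compared groups alone 7 passed. Cyp3a11, Cyp3a25, Cyp2b10, Cyp3a13 and Cyp2c66 did not pass without Sa replicate 3 of set 1, the library that stood apart. All of these except Cyp3a25 were also lost without certain other single libraries. For A100-FMT, Cyp3a13 alone passed (-1.16 ± 0.37, adjusted p = 0.03 by limma, against 26.8% of all genes in either direction and 13.5% lower), and it did not pass without Sa replicate 3 or A100-FMT replicate 1 or 2 of set 1, or without Sa replicate 2 or 3 or A100-FMT replicate 1 or 2 of set 2. For Con-FMT 0 passed (0.00882% of all genes, and 4 at an unadjusted p under 0.05). All enterocyte markers, 8 of 8, were also lower in set 2 in this contrast for A10-FMT, and their part was not tested.

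Averaged over Con-FMT, A10-FMT and A100-FMT, 9 P450 genes were lower in set 2 than in set 1 and 0 higher (40.9%, against 9.64% of all genes in either direction and 3.63% lower). The changes were -0.90 ± 0.25 for Cyp3a11, -0.79 ± 0.14 for Cyp3a13, -0.69 ± 0.16 for Cyp2b10, -0.58 ± 0.16 for Cyp3a25, -0.57 ± 0.13 for Cyp2c65, -0.53 ± 0.12 for Cyp2c66, -0.47 ± 0.12 for Cyp4b1, -0.36 ± 0.11 for Cyp2d26 and -0.30 ± 0.07 for Cyp4f14. Cyp3a11, Cyp3a25 and Cyp2d26 did not pass with a replicate block or with all genes above 0, each of which left 6. Within the groups, the median change of the 22 P450 genes was -0.83 in A10-FMT, -0.11 in A100-FMT and -0.0077 in Con-FMT. Of the 9 genes, Cyp4f14, Cyp2d26 and Cyp4b1 had higher mean FPKM in set 2 in Con-FMT, as had Cyp3a11 and Cyp2c66 in A100-FMT. The others of the 9, among them Cyp3a13, were lower in set 2 in the mean of each FMT group. For Cyp3a13 the values were as follows. The change was -0.78 ± 0.24 in A10-FMT (adjusted p = 0.0228 by limma), -0.82 ± 0.24 in Con-FMT (0.668) and -0.77 ± 0.24 in A100-FMT (0.185). In Sa it changed by 0.38 ± 0.27 (adjusted p = 0.267). The count over the FMT groups was 5 without A10-FMT replicate 3 or A100-FMT replicate 2 of set 1, and also 5 without Con-FMT replicate 1 or A10-FMT replicate 2 of set 2. Enterocyte markers had 6 of 8 lower in this contrast (median -0.35), and their part was not tested.

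Cyp1a1, the classical AHR target, had its highest group mean in Con-FMT of set 2. It was 20.9, 8.57 and 7.79 FPKM in Con-FMT of set 2. These were above the 4.59, 3.92 and 3.88 of Sa and the 4.22, 2.23 and 3.36 of A10-FMT of that set. They overlapped the 6.72, 5.81 and 11.9 FPKM of A100-FMT of that set. The value of 20.9 was from replicate 1 of Con-FMT and was the highest of all 23 mice. The change of Con-FMT vs Sa in set 2 was 1.26 ± 0.37 and did not pass (adjusted p = 0.41 by limma). In set 1, Sa had 10.6 and 3.48 FPKM and Con-FMT 2.74, 4.7 and 6.5. A10-FMT of set 1 had 6.16, 8.77 and 5.65 FPKM and A100-FMT 4.11, 5.07 and 3.41. The difference between A10-FMT and Con-FMT was lower in set 2 than in set 1 by -2.06 ± 0.52 (adjusted p = 0.0101).

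Cyp2s1, a P450 found mostly outside the liver, and Cyp2j6 passed in none of the comparisons given here. Cyp2s1 was 40.3 to 54.0 FPKM in 22 mice and 66.3 in Sa replicate 3 of set 1, and Cyp2j6 was 27.1 to 45.4 in all. Between the A10-FMT sets, Cyp2s1 changed by -0.13 (95% interval -0.36 to 0.10) and Cyp2j6 by -0.35 (-0.65 to -0.04, adjusted p = 0.0813 by limma).

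The receptors that control these genes were described next. Of 16 receptors and their partners, 0 rose and 4 fell between the A10-FMT sets (Esrra, Nr1h4, Nr1h3 and Nr1i3). Beside this and the list counts that follow, 30.4% of all genes passed between these sets, with 8.62% lower and 21.8% higher. Hnf4a, the most abundant at a mean of 255 FPKM, changed by 0.12 ± 0.04 and did not pass (adjusted p = 0.0523 by limma). The sensors named at the start were looked at after their values were seen. Nr1i3 fell by 0.33 on the log2 scale (from 14.1 ± 0.93 to 10.95 ± 0.07 FPKM, SD, n = 3 each, adjusted p = 0.0120). Nr1i2 was 42.6 ± 1.03 and 41.7 ± 0.92 FPKM (change -0.03 ± 0.07), Ahr 2.70 ± 0.09 and 3.27 ± 0.43 (0.20 ± 0.13) and Ppara 6.08 ± 0.66 and 7.02 ± 0.79 (0.18 ± 0.14), and these 3 did not pass.

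The list of redox partners went with the P450 genes. It held Por, Cyb5a, Cyb5b, Cyb5r3 and Pgrmc1, and also the heme enzymes Hmox1 and Alas1 and the epoxide hydrolases Ephx1 and Ephx2. Its counts are therefore not counts of electron donors alone. Of the 8 tested genes of this list, 6 fell between the A10-FMT sets and 0 rose (median -0.28). Por fell by 0.70 on the log2 scale, from 96.5 ± 7.36 to 58.7 ± 1.18 FPKM (SD, n = 3 each, adjusted p = 1.82e-04 by limma). The electron carriers Cyb5a and Cyb5r3 fell by 0.21 and 0.38.

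Other known targets of PXR and CAR fell too, with 12 of 17 lower in A10-FMT of set 2 than of set 1 and 0 higher (median -0.62). Their 3 most abundant members are the carboxylesterases Ces2e and Ces2c and the glutathione transferase Gstm3. Ces2c fell by 1.01, Gstm3 by 0.86 and Ces2e by 0.43. Por is also on this list. Of 19 PPAR-alpha targets, 9 fell and 0 rose (median -0.25), among them the fatty acid binding protein Fabp1, which fell by 1.23 and is also on the proximal small intestine list. Of 25 phase 2 conjugation genes, 10 fell and 0 rose (median -0.30). This list shares Gsta1, Gsta4, Gstm1, Gstm3, Ugt1a1, Sult1b1 and Sult1d1 with that of PXR and CAR targets, so the counts are not separate. Enterocyte markers also fell between the A10-FMT sets, as given above. Their part in the changes of these lists and of the redox partner list was not tested.

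The AhR targets outside P450 had 0 of 5 passing (median -0.04). Of 9 other enzymes of arachidonic acid, 2 fell and 1 rose. The P450 genes of other families went the other way, with 2 of 4 higher in A10-FMT of set 2 and 0 lower. These, named after their values were seen, were Cyp20a1 (0.36 ± 0.09) and Cyp39a1 (0.49 ± 0.11), an oxysterol hydroxylase of bile acid synthesis, while Cyp51 of cholesterol synthesis, the most abundant at 42.4 FPKM, did not pass. In A10-FMT vs Con-FMT of set 1, 16.7% of all genes passed in either direction and 5.2% were higher. There, 5 of 17 PXR and CAR targets, 4 of 8 genes of the redox partner list and 4 of 25 conjugation genes were higher and 0 lower. Of 19 PPAR-alpha targets, 3 were higher and 0 lower, and of 16 receptors and partners, 3 were higher and 1 lower. Of the 5 AhR targets, 0 passed. Most enterocyte markers were also higher in that comparison, as given above, and their part was not tested.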

How the data were processed

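RNA-seq values of 23 mouse small intestine libraries were analysed. The authors extracted RNA with TRIzol and sequenced it on an Illumina HiSeq; the deposited values are FPKM with 2 decimals, and the labels name mm10. Read numbers were not used, so no count model was fitted and the depth is unknown. In 1 Sa library, the title's column was used and the description's column tried as an alternative. Symbols and coordinates came from RefSeq GRCm38.p6.

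The 11337 entries averaging 1 FPKM or more were tested on log2(FPKM + 1), where the added 1 shrinks changes of low genes, with limma 3.58.1 (R 4.3.3), 1 mean per group, eBayes with trend and Benjamini-Hochberg adjustment, and passed at 0.05. Tables and figures were made in Python 3.11.15 (pandas 2.3.3, numpy 2.4.6, scipy 1.17.1, matplotlib 3.10.9). On simulated data with these group sizes and 11337 genes, the test recovered 93.4% of 2-fold changes for A10-FMT vs Sa in set 1 and 94.2% in set 2. The simulated noise was normal and independent between genes and libraries, with no outlying library. These shares therefore do not give the rate of missed changes in the real data.

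Named were the 16 P450 genes with the highest mean, those called over both sets, between sets or in an interaction, up to 2 each way per set against Sa, and up to 3 per list by mean or by call between sets; other names are values described after they were seen. The members and lists were chosen with earlier results of these data known. Alternatives tried were quantile normalization, array quality weights, a replicate block, the compared groups alone, the description's column, 0.1 as the pseudocount, every entry above 0, and leaving out each library. Comparisons with Con-FMT within a set, of the sets within a treatment, and interactions without Sa were added after the data were seen.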

Additional observations from a re-analysis of the deposited data

Results flagged for a closer look

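Each of the following differences was picked out because the same contrast differed between the 2 sets, by an interaction tested with limma at an adjusted p under 0.05, and each is a log2 difference, set 2 minus set 1. For A10-FMT vs Sa these were Cyp3a11 at -2.02, Cyp4b1 at -1.81, Cyp2c65 at -1.74, Cyp3a25 at -1.47, Cyp4v3 at -1.37, Cyp2b10 at -1.36, Cyp2d26 at -1.29, Cyp3a13 at -1.16, Cyp4f14 at -1.13, Cyp2d22 at -0.996, Cyp2c66 at -0.89 and Cyp2c68 at -0.72. For A100-FMT vs Sa it was Cyp3a13 at -1.16. Without Sa replicate 3 of set 1, that call was lost, as were those of Cyp3a11, Cyp3a25, Cyp2b10, Cyp3a13 and Cyp2c66 for A10-FMT vs Sa.

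For A10-FMT vs Con-FMT, the genes were Cyp1a1 at -2.06, Cyp4f16 at -1.69, Cyp2d26 at -1.43, Cyp4b1 at -1.42, Cyp2b10 at -1.36, Cyp2d22 at -1.19, Cyp2c65 at -1.16, Cyp4f14 at -1.12, Cyp4f13 at -0.97 and Cyp4v3 at -0.91. For A10-FMT vs A100-FMT they were Cyp3a11 at -2.34, Cyp2b10 at -1.46, Cyp4b1 at -1.26, Cyp2c66 at -1.11, Cyp2d26 at -1.09 and Cyp4f14 at -0.67. With a replicate block, 0 P450 genes passed for A10-FMT vs A100-FMT. Over the 31 fits, which are the main one, the alternatives and each library left out, these genes passed in 12 (Cyp2c66) to 24 (Cyp4b1). The contrasts share the A10-FMT mice. The part of the enterocyte markers, lower in set 2 in A10-FMT, was not tested.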

How the results depend on the processing

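Counts are P450 genes that passed, of 22 tested unless all genes above 0 were used. With array quality weights, 0 passed for Con-FMT, A10-FMT and A100-FMT vs Sa in set 1 (1, 7 and 1 as reported) and 0 for the interactions with Sa (12), while 2, 13 and 2 passed in set 2 (0, 2 and 0). With the compared groups alone, 0 passed for each FMT group vs Sa in set 1 and 7 for the interactions. With all genes above 0, 3 passed for A100-FMT vs Sa in set 1 and 0 for A10-FMT vs Sa in set 2, and with quantile normalization 2 for A100-FMT in set 1. With the description's column, Con-FMT and A100-FMT vs Sa in set 1 gave 0 and 2, A10-FMT in set 2 gave 8, and Con-FMT and A10-FMT over both sets gave 1 and 2 (0 and 0). A10-FMT vs Con-FMT gave 5 in set 1 alone and 1 in set 2 alone (0 over both). Set 2 vs set 1 (9 over the FMT groups) gave 14 in A10-FMT alone, 1 in Sa alone and 0 in Con-FMT or A100-FMT alone. The interactions gave 0 for A100-FMT vs Con-FMT and 6 for A10-FMT vs A100-FMT in place of Sa. The cause of these changes was not tested.

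Without each library in turn, the counts for Con-FMT, A10-FMT and A100-FMT vs Sa ran from 0 to 8, 2 to 10 and 0 to 7 in set 1, from 0 to 0, 0 to 10 and 0 to 0 in set 2, and from 0 to 7, 0 to 2 and 0 to 4 over both sets. They ran from 0 to 0 for A10-FMT and A100-FMT vs Con-FMT, from 5 to 10 for the sets and from 8 to 16 for the interactions. The highest counts vs Sa came without Sa replicate 1 of set 1. Without Sa replicate 3 of set 1, 3 changes that had not passed turned direction: Cyp3a11 to -0.16 for Con-FMT and -0.13 for A10-FMT (1.16 and 1.19 without replicate 1), and Cyp3a25 to -0.12 for A100-FMT (1.19 without replicate 1).

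The replicate numbers were not taken to pair the mice. Of 33 pairs of mice with the same number, 10 correlated above 0.1 in their deviations from the group means (median 0.0019). Of 66 pairs with other numbers, 18 did (median -0.0037). Of 23 mice, 5 correlated best with their own number. With a replicate block, 0 passed for A10-FMT vs Sa in set 2, 6 for the sets and 11 for the interactions. For single genes, leaving out a library left 1006 values with the same call and direction, while 116 lost the call, 25 gained it and 3 turned direction. Depth is unknown, so the precision of low genes such as Cyp2c66 cannot be given beyond the spread between mice.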
